A study of Mus musculus with 2 samples.

Results

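The cells described here were Ly6c2-low, C1q-positive colonic macrophages, 217 of the 21921 cells deposited. They were selected on their own transcript counts, so the counts of the selecting genes are a description of the choice. A member carried at least 1 unique molecular identifier (UMI, 1 counted transcript molecule) of Csf1r and of each of C1qa, C1qb and C1qc, had under 1 Ly6c2 UMI per 10000 UMIs, and had none of Nos2, Cd3e or Cd79a. The library labelled Runx3_fl held 127 members among its 12968 cells and the Runx3 library held 90 among 8953. They are called Runx3_fl members and Runx3 members below.

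The study compared the colon of mice whose myeloid cells lacked the transcription factor RUNX3 (RUNX3 fl/fl-Lyz2-Cre) with that of RUNX3 fl/fl littermates. Lyz2-Cre acts in macrophages, monocytes and neutrophils, so the deletion is not limited to macrophages. The study describes each library as a pool of young adult male mice. Per the labels, CD11b+ cells of the lamina propria were taken from a Percoll interphase and sorted, and 7-AAD-stained dead cells were excluded. Neither title says which library carries Cre, so the libraries go by their titles and no genotype is assigned to either. With 1 library per title there is no replicate, no test was made, and title, pool, sort and library cannot be told apart. Every interval below is a 95% interval of counting error only.

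Csf1r encodes the receptor for the growth factor on which macrophages depend, and C1qa, C1qb and C1qc encode the chains of C1q, the recognition molecule of the classical complement pathway. In the adult gut, circulating Ly6C-high monocytes enter the lamina propria, lose Ly6C and CCR2, and gain MHC class II, CX3CR1 and the mannose receptor MRC1 as they mature into resident macrophages that clear dying cells and tolerate the flora. Nos2 marks inflammatory activation, and Cd3e and Cd79a mark T and B cells.

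The choice turned on Ly6c2, whose neighbour Ly6c1 is almost the same gene, so the pair is shown where the last coding exons can be told apart. Over the 393 coding bases the genes differed at 9, an identity of 97.7%. Both lie on the minus strand of chromosome 15 in mm10 (GRCm38), Ly6c2 at chr15:75108158-75111970 and Ly6c1 at chr15:75044018-75048830. The 60 bases below are coding bases 317 to 376, at chr15:75108563-75108622 for Ly6c2 and chr15:75045422-75045481 for Ly6c1, and capitals mark the 2 positions at which they differ.
Ly6c2: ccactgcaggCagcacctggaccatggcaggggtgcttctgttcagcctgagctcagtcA
Ly6c1: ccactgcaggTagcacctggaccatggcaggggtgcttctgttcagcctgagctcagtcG
A read of 91 bases in the last 500 bases of the Ly6c2 transcript would have matched Ly6c1 equally in 8.29% of its possible positions. Ly6c1 stood at 1.05 UMIs per 1000000 UMIs (CPM) in members of the Runx3_fl library and at 4.42 CPM in those of the Runx3 library.

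After the study's own limits of 200 to 6000 genes and at most 15% mitochondrial UMIs, 11885 cells of the Runx3_fl library and 8167 of the Runx3 library were kept, with a median of 9573 and 5731 UMIs. Members were deeper and closer in depth, with a median of 14572 and 10921 UMIs, and 2 and 5 of them had under 2000. The libraries shared 37 barcodes, none of them a member's. Although the pools are described as male, 23.2% of kept cells of the Runx3_fl library had Xist, the transcript of the inactive X chromosome, and no Y-linked transcript, against none of the Runx3 library. Among members these were 19 of 127 and 0 of 90. The doublet caller Scrublet marked 7.51% of the kept cells of the Runx3_fl library but 0.0367% of those of the Runx3 library, where it did not work.

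**Figure D1:**
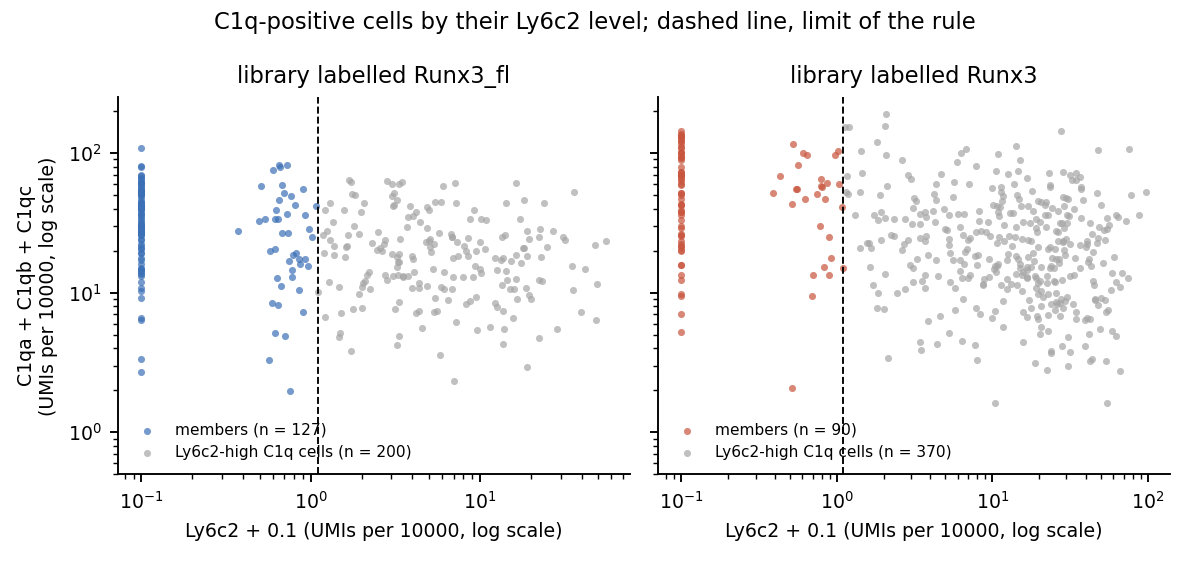
The Ly6c2 level of each C1q-positive cell past the other gates (UMIs per 10000 plus 0.1, log x axis) and its summed C1qa, C1qb and C1qc level (UMIs per 10000, log y axis), 1 panel per library, each point 1 cell and the dashed line the limit of the rule. Members (blue or red, 127 and 90) lie left of the line and Ly6c2-high cells (grey, 200 and 370) right of it.

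The gate was a cut through a continuous range. The highest member stood at 0.977 and 0.992 Ly6c2 UMIs per 10000 in the Runx3_fl and Runx3 libraries, and the lowest cell outside at 1.01 and 1.02. The cells outside reached 55.8 and 97.9, with a median of 5.28 and 15.6. A cell with fewer than 10000 UMIs passed this gate only if it had no Ly6c2 UMI at all, and 45 and 29 members did carry Ly6c2. A shallow cell can miss a Ly6c2 UMI, but also the Csf1r and C1q UMIs that the rule requires. The 200 and 370 cells that passed every other gate with 1 Ly6c2 UMI per 10000 or more are called Ly6c2-high cells.

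Members were a like share of the kept cells in both libraries at full depth and an unlike share of the C1q-positive macrophages. They made up 1.07% (0.892 to 1.27) of kept cells of the Runx3_fl library and 1.1% (0.887 to 1.35) of those of the Runx3 library. Among the C1q-positive cells that passed the other gates they were 38.8% (33.5 to 44.4) and 19.6% (16.0 to 23.5). All C1q-positive, Csf1r-positive cells together were 4.59% and 8.31% of kept cells. Kept cells also held 123 and 723 B cells, as defined below, so a share of kept cells is not a share of myeloid cells. The exclusion gates took unlike cells from the libraries on the way from 546 to 327 and from 679 to 460 C1q-positive cells. The Nos2 gate took 142 cells of the Runx3_fl library and 51 of the Runx3 library, the Cd3e gate 77 and 64, and the Cd79a gate 0 and 104. When each cell was thinned to 2000 UMIs before the gates, members were 0.506% (0.383 to 0.655) and 1.00% (0.769 to 1.28) of kept cells, and 62.0% and 38.2% of C1q-positive cells. Only 52.6% (30 of 57) and 57.1% (36 of 63) of these thinned members were members at full depth. The near-equal share of kept cells thus held at full depth and not at equal depth, whereas the higher share among C1q-positive cells of the Runx3_fl library held at both.

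Runx3, the targeted gene, was detected in members of both libraries. It stood at 154 CPM (137 to 173) in the Runx3_fl library and 307 CPM (276 to 342) in the Runx3 library, a log2 difference of 0.99 (0.77 to 1.22), and 71.7% and 77.8% of members had a UMI. B cells (Cd79a at 2 UMIs or more, Ms4a1 at 1 or more, no Csf1r or Cd3e), which Lyz2-Cre spares, stood at 104 and 76.5 CPM. Ly6c2-high cells had 145 and 237 CPM. Whether the counted reads cover the deleted stretch was not analysed here, so the level is no check of the labels.

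The C1q genes of the rule were themselves higher in members of the Runx3 library. Summed C1qa, C1qb and C1qc had a median of 30.2 UMIs per 10000 per cell (quartiles 17.2 and 47.3) in Runx3_fl members and 51.9 (25.7 and 87.6) in Runx3 members, against 18.1 and 20.8 in Ly6c2-high cells. The highest member reached 108 and 143. The 3 genes are neighbours on chromosome 4, at chr4:136895917-136898803 (C1qa), chr4:136889804-136893065 (C1qc) and chr4:136880129-136886187 (C1qb), all on the minus strand of mm10.

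Mature gut macrophages are described as carrying Mrc1 and Cx3cr1 and little Ccr2 and F10, genes the rule did not use. Mrc1 encodes the mannose receptor, an endocytic lectin. Mrc1 stood at 110.0 CPM (95.6 to 126) in Runx3_fl members and 392 CPM (357 to 431) in Runx3 members, with 15.2% and 17.6% of its UMIs from 1 cell of each library. In Ly6c2-high cells it stood at 52.3 and 99 CPM, a log2 difference of members over Ly6c2-high cells of 1.06 (0.76 to 1.38) and 1.98 (1.80 to 2.17). Thinned to 2000 UMIs, 11.2% (6.26 to 18.1) and 27.1% (18.0 to 37.8) of members had a UMI, against 0.813% and 0.417% of B cells, taken as the background, whose median depth was 6766 and 6466 UMIs. Of Ly6c2-high cells 7% (3.88 to 11.5) and 12.2% (9.02 to 16.1) had a UMI at that depth. The intervals of the 2 classes overlapped in the Runx3_fl library and not in the Runx3 library. By CPM, Mrc1 was higher in members than in Ly6c2-high cells of either library, and higher in Runx3 members.

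Cx3cr1, the receptor for the chemokine fractalkine, followed the same order. It stood at 70.2 CPM (58.8 to 83.1) in Runx3_fl members and 325 CPM (293 to 360.1) in Runx3 members, against 30.5 and 107 CPM in Ly6c2-high cells. The log2 difference between the libraries was 2.20 (1.92 to 2.51) in members. At 2000 UMIs it was seen in 13.6% and 40.0% of members, 6% and 19.2% of Ly6c2-high cells, and 1.63% and 2.36% of B cells. Its locus, chr9:119901616-120069879 on the minus strand of mm10, overlaps Gorasp1, Csrnp1 and Xirp1 on the same strand, so some reads may be shared with them, and Mrc1 at chr2:14229392-14332057 holds Mir511.

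By CPM, Ccr2 and F10 were lower in members than in Ly6c2-high cells but not absent. Ccr2, the chemokine receptor that brings monocytes out of the marrow, stood at 254 CPM (232 to 278) in Runx3_fl members and 185 CPM (160.5 to 211) in Runx3 members, against 329.5 and 338 CPM in Ly6c2-high cells. At full depth 82.7% and 52.2% of members had a Ccr2 UMI. At 2000 UMIs these were 38.4% (29.8 to 47.5) and 29.4% (20.0 to 40.3), against 0.813% and 1.81% of B cells. Ly6c2-high cells had 43.5% (36.5 to 50.7) and 38.6% (33.6 to 43.9) at that depth, so the intervals of the 2 classes overlapped. F10, the gene of coagulation factor X, stood at 123 CPM (108 to 139.8) and 31.8 CPM (22.3 to 44.0) in members, and at 272 and 159 CPM in Ly6c2-high cells. At 2000 UMIs F10 was seen in 19.2% and 1.18% of members, the latter 1 of 85 and too few to tell from the 1.39% of B cells. Ly6c2-high cells had F10 in 31% and 22.2% at that depth. At full depth 15.6% of Runx3 members had an F10 UMI, against 4.01% of B cells. Those B cells stood at 7.92 CPM (5.75 to 10.6), under the members' 31.8 CPM. Thinning before the gates moved F10 to 190.3 CPM in Runx3_fl members and to 51.6 CPM in Runx3 members.

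**Figure D2:**
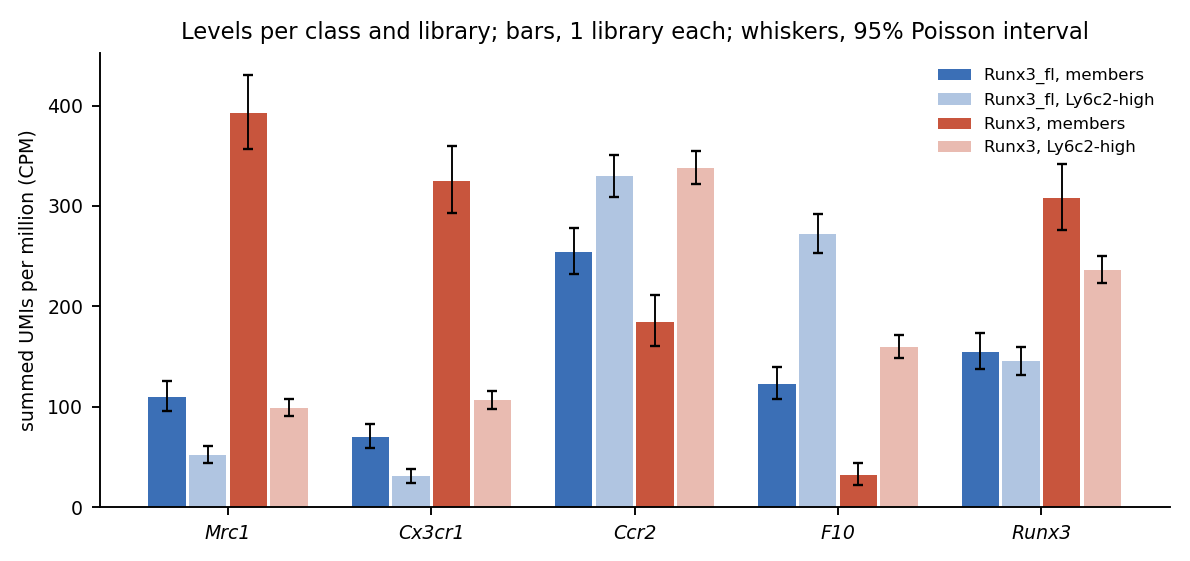
Levels of Mrc1, Cx3cr1, Ccr2, F10 and Runx3 (x axis) in CPM (y axis), with 1 bar for members and 1 paler bar for Ly6c2-high cells of each library and whiskers for the exact Poisson 95% interval. Mrc1 and Cx3cr1 are highest in Runx3 members (392 and 325 CPM), and F10 is lowest there (31.8 CPM).

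Single members carried these genes in different combinations. At 2000 UMIs both Mrc1 and Cx3cr1 were seen in 1.60% of Runx3_fl members (2 of 125) and 14.1% of those of the Runx3 library (12 of 85), and neither in 76.8% and 47.1%. Mrc1 or Cx3cr1 without Ccr2 or F10, the pair of features of a settled macrophage, was seen in 12.0% (6.87 to 19.0) and 40.0% (29.5 to 51.2). The opposite, Ccr2 or F10 without Mrc1 or Cx3cr1, was seen in 42.4% (33.6 to 51.6) and 17.6% (10.2 to 27.4). A gene that is present can be missed at 2000 UMIs, so shares with a gene are too low and shares without it too high. At 4000 UMIs neither Mrc1 nor Cx3cr1 was seen in 65.0% and 22.4% of members, Mrc1 or Cx3cr1 without Ccr2 or F10 in 13% and 47.4%, and the opposite in 40.7% and 9.21%.

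**Figure D3:**
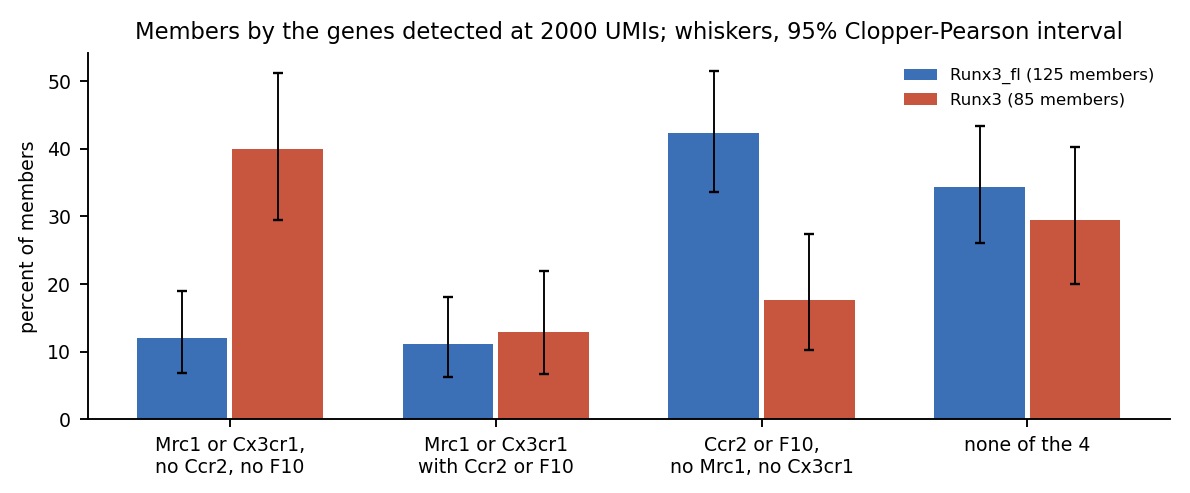
Share of members (percent, y axis) in each of the classes by Mrc1, Cx3cr1, Ccr2 and F10 after thinning every cell to 2000 UMIs, per library, with whiskers for the exact Clopper-Pearson 95% interval. Mrc1 or Cx3cr1 without Ccr2 and F10 takes 12.0% of Runx3_fl members and 40.0% of Runx3 members, and Ccr2 or F10 without Mrc1 and Cx3cr1 takes 42.4% and 17.6%.

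Other genes of long-lived gut macrophages were sparse. Cd163 (haemoglobin scavenger receptor), Lyve1 (hyaluronan receptor), Vsig4 (complement receptor of tissue macrophages), Cd209f and Cd209g had no UMI in members of either library. At 0 UMIs over the members the interval reaches 1.93 CPM in the Runx3_fl library and 3.26 CPM in the Runx3 library. Timd4, a receptor for phosphatidylserine on dying cells, stood at 7.85 and 9.72 CPM, with 60% and 54.5% of its UMIs from 1 cell. Folr2 stood at 1.05 and 11.5 CPM and Cd4 at 3.67 (1.47 to 7.55) and 67.1 CPM (52.9 to 84.0), with Cd4 in 5.51% and 21.1% of members. On these markers the name resident-type fitted some members only, a smaller share in the Runx3_fl library, and the cells are therefore called by their rule.

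Set against Ly6c2-high cells of the same library, members had more of some resident and core macrophage genes, Mrc1, Cx3cr1, Cd63 and Apoe among them, and less of many monocyte genes. All ratios are log2 of (CPM + 1), the 2 libraries side by side. Of 6945 genes with at least 50 UMIs in both comparisons, 44 (0.634%) were at least 1 log2 unit higher in members of both libraries and 20 (0.288%) at least 1 lower. The median gene stood at 0.01 in the Runx3_fl library and -0.03 in the Runx3 library. Since Ly6c2 and the monocyte genes are read in the same cells, the contrast is close to the one that chose the members.

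Of 9 measured resident genes 2 were at least 1 higher in both libraries (Mrc1 and Cx3cr1) and none at least 1 lower. Their median was 0.75 and 1.23, the latter 0.69 when cells were thinned before the gates. Selenop, a secreted selenium carrier, was at 0.76 and 1.23, and Stab1, a scavenger receptor, at 0.47 and 1.66. F13a1, of the same list, was lower in both, at -0.34 (-0.64 to -0.04) and -0.89 (-1.34 to -0.50). Of 14 core macrophage genes 3 were higher in both, and the list median was -0.07 and 0.13. They were Ms4a7, a membrane protein of macrophages (1.66 and 1.37), Cd63, a lysosomal tetraspanin (1.54 and 1.70), and Apoe, the lipid carrier (1.14 and 1.52). Lyz2, the lysozyme gene that drives Cre in this model, was lower, at -0.97 and -0.37.

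Of 12 measured monocyte genes 6 were at least 1 lower in both libraries and none higher, with a median of -1.05 and -2.15, or -0.45 and -1.10 when cells were thinned before the gates. F10, Plac8, Chil3, Hp and Vcan were among them. Plac8 stood at 909 and 523 CPM in members against 2761 and 2640.4 CPM in Ly6c2-high cells, a ratio of -1.60 (-1.68 to -1.53) and -2.33 (-2.46 to -2.22). Chil3, a chitinase-like protein, was at -2.79 and -3.04, and Hp, haptoglobin, at -1.94 and -2.99. Ccr2 was at -0.37 and -0.87, short of the limit in both. Of the 12 genes 11 were below 0 in both libraries. The exception was Fn1, higher in Runx3_fl members (1.28, 0.89 to 1.75) and lower in Runx3 members (-0.47, -0.92 to -0.07).

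MHC class II genes, which present antigen to T cells, had medians of 0.18 and 0.70, and none of 8 reached 1 in both libraries. H2-Aa stood at 5818 and 5943 CPM in members, against 5014 and 3544 CPM in Ly6c2-high cells. Cd74, the invariant chain, was at 0.15 and 0.80. The 10 measured genes of the complement list had medians of 0.29 and 0.53. Of 20 inflammatory mediators, 1 was at least 1 higher in both (Ccl7, 1.46 and 2.60) and 1 lower (Il6, -1.01 and -1.34, which turned to 1.03 in the Runx3_fl library when cells were thinned before the gates). The scavenger, regulatory, lysosome, interferon and stress lists had no gene past the limit in both libraries, with medians between -0.40 and 0.35.

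The genes with the largest ratios in both libraries were not the lists' markers alone. Cadm1, a cell adhesion molecule, stood at 136 and 393 CPM in members against 28.4 and 38.4 CPM in Ly6c2-high cells (2.22 and 3.32). Cd81, a tetraspanin, was at 2.10 and 2.97, and the collagenase gene Mmp13 at 1.86 and 3.92, with 25% and 32.3% of its member UMIs from 1 cell. The chemokine gene Ccl12 was at 2.25 and 2.11 but turned to -0.28 in the Runx3 library when cells were thinned before the gates. Cd72 (1.46 and 1.58), Pmepa1 (1.32 and 2.46), Rnf180 (2.52 and 1.26) and Slamf9 (1.25 and 1.35) completed the 10 with Cd63 and Ms4a7. At the other end, after Chil3, Hp, Plac8 and F10, stood Plcb1 (-1.57 and -3.11, turning to 0.51 in the Runx3_fl library after thinning), the cytokine gene Osm (-1.0 and -1.10), the protease inhibitor gene Slpi (-1.0 and -2.32), Ly6i (-0.97 and -2.13), the death receptor gene Fas (-0.96 and -1.36) and Thbs1 (-0.96 and -1.26).

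**Figure D4:**
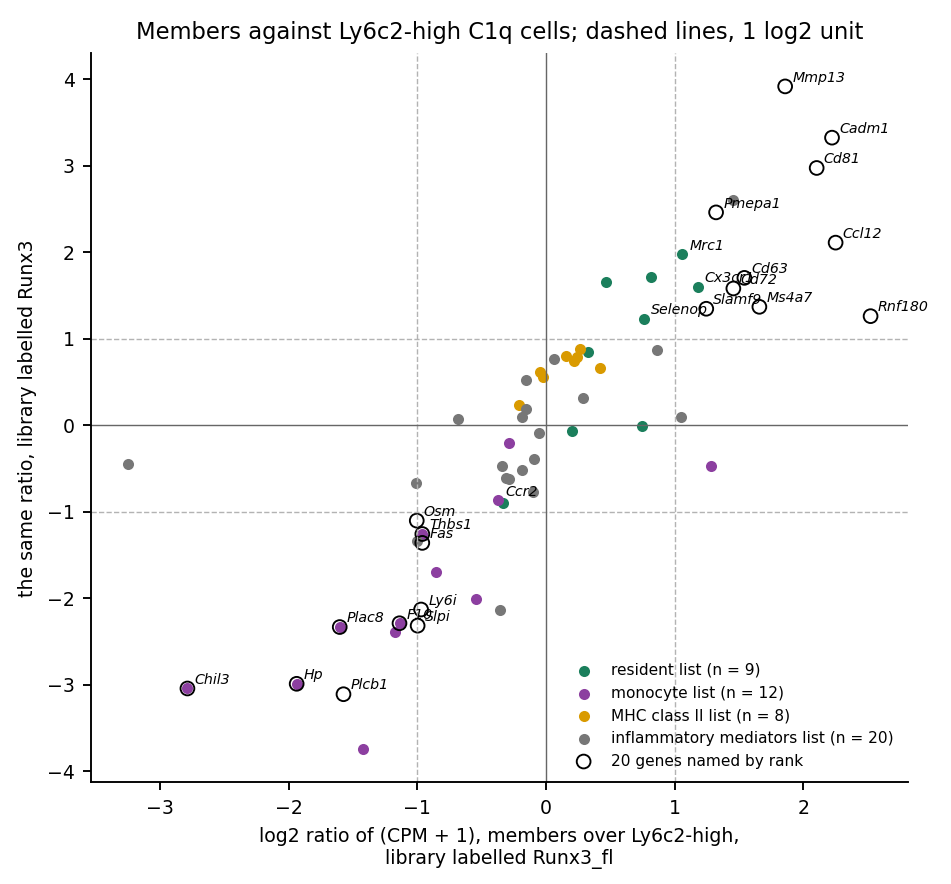
Log2 ratio of members over Ly6c2-high cells for measured genes of 4 lists (coloured points) and the 20 genes named by rank (open circles), the Runx3_fl library on the x axis and the Runx3 library on the y axis, both of (CPM + 1), with dashed lines at 1 log2 unit. Mrc1, Cx3cr1, Cd81 and Cadm1 lie in the upper right and Plac8, Chil3 and F10 in the lower left, each with the same sign in both libraries.

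Between the libraries, Runx3 members carried more transcript of most resident genes and less of most inflammatory mediators than Runx3_fl members. Of 6317 genes with at least 50 UMIs, 626 (9.91%) were at least 1 log2 unit higher in Runx3 members and 373 (5.90%) at least 1 lower, around a median of 0.11. Ratios below are those of the Runx3 library over the Runx3_fl library. Some genes, Nr4a1, Hspa1a and Il1b among them, are in more than 1 list, so the counts of the lists are not separate. Ly6c2-high cells differed the same way for many genes named below, so those differences are not particular to members. There Apoe stood at 1.89, Mertk at 2.18, Stab1 at 1.73 and Cx3cr1 at 1.77. Tnf stood at -1.57 there, Il6 at -2.42, Il23a at -2.36 and Cxcl9 at -2.57. Other genes went the opposite way in the 2 classes, such as Cd36 (-0.87 in Ly6c2-high cells and 1.38 in members). For some further genes the ratio in Ly6c2-high cells stands beside that of members.

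Of 10 measured resident genes 7 were at least 1 higher and none at least 1 lower, with a median of 1.83. Hes1, a transcription factor downstream of Notch, stood at 25.7 CPM (19.0 to 33.9) in Runx3_fl members and 307 CPM (276 to 342) in those of the Runx3 library, a ratio of 3.53 (3.15 to 4.05), and 4.29 in Ly6c2-high cells. Stab1 stood at 15.7 and 125 CPM (2.92), Selenop at 160.2 and 503 CPM (1.64) and Maf, a transcription factor of tissue macrophages, at 112 and 399 CPM (1.83). Dnase1l3, a nuclease that degrades DNA of dead cells, was nearly level at 276 and 245 CPM, and -1.07 in Ly6c2-high cells. F13a1 was lower but short of the limit (-0.61, -1.10 to -0.17).

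Of 14 core macrophage genes 5 were at least 1 higher and 1 lower. Apoe stood at 1353 and 6563 CPM (2.28, 2.21 to 2.34), Mertk, the receptor that binds dying cells through bridging proteins, at 9.43 and 84.8 CPM (3.04), and Adgre1, which encodes F4/80, at 133 and 345 CPM (1.37). Ms4a7 (1.58) and Cd63 (1.48) were the others. Lyz2 was the lower one, at 2014 and 1000.1 CPM (-1.01), and at -1.61 in Ly6c2-high cells.

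Of 13 measured scavenger and efferocytosis genes 7 were at least 1 higher and none lower, with a median of 1.04, which came to 0.22 when cells were thinned before the gates. Gas6, a bridging protein between dying cells and Mertk, stood at 2.09 and 56.5 CPM, but 45.3% of its UMIs in the Runx3 library came from 1 cell. Cd36, a receptor for oxidised lipid, stood at 36.7 and 97.2 CPM (1.38) but turned to -0.21 when cells were thinned before the gates. Itgav, an integrin chain, was on the other side at 699 and 430.3 CPM (-0.70). Of 22 lysosome and lipid genes 7 were at least 1 higher and none lower, with a median of 0.64. The protease genes Lgmn (580.2 and 1552 CPM, 1.42) and Ctsb (876 and 2059.5 CPM, 1.23) were among them, as was Grn (1.61). Fabp5, at 1.67, had 58.9% of its UMIs in the Runx3 library from 1 cell and turned to -0.15 when members with any Ly6c2 UMI were left out.

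Of 20 inflammatory mediators 14 were at least 1 lower in Runx3 members and 4 at least 1 higher, with a median of -1.77. Il1b stood at 4969.5 CPM (4870.0 to 5071) in Runx3_fl members and 1387 CPM (1319 to 1457) in those of the Runx3 library, a ratio of -1.84 (-1.92 to -1.76), and -1.51 in Ly6c2-high cells. Il1b encodes interleukin-1 beta, and it was seen in 92% and 70.6% of members at 2000 UMIs. Il23a, a subunit of the cytokine that sustains type 17 responses, stood at 126 and 18.6 CPM (-2.70), and the fever and acute phase cytokine Il6 at 101 and 14.1 CPM (-2.75). Tnf had 907 and 247 CPM (-1.87). Acod1, which makes the metabolite itaconate in activated macrophages, had the lowest ratio of the list, at 1342 and 147 CPM (-3.18, -3.43 to -2.97).

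The chemokine genes were split. Cxcl2 (7576 and 2316 CPM, -1.71), Ccl4 (4039 and 1034 CPM, -1.97) and Cxcl9 (1622 and 437 CPM, -1.89), which attract neutrophils, monocytes and T cells, were lower in Runx3 members. The monocyte attractants Ccl8, Ccl7 and Ccl2 were higher there. Ccl8 stood at 146 CPM against no UMI in 127 members, which is 92.8 times a floor of 3 counts over the class. The interval of its log2 ratio began at 6.22, and in Ly6c2-high cells the ratio was 1.72. Ccl7 was at 44.5 and 190.0 CPM (2.07) and Ccl2 at 97.9 and 199 CPM (1.01). Saa3, an acute phase gene, was at 18.9 and 486 CPM, with 83.5% of the latter from 1 cell.

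Of 17 regulatory genes 4 were at least 1 higher and 2 at least 1 lower, with a median of 0.63. Nr4a1, a nuclear receptor on which patrolling monocytes depend, stood at 133 and 322 CPM (1.27, 1.04 to 1.51), and at 1.56 in Ly6c2-high cells. Hmox1, which degrades haem, was at 1.87, Trem2, a lipid-sensing receptor, at 9.95 and 80.4 CPM (2.89), and Zfp36l2, an RNA-binding protein, at 1.08. Il1rn, the antagonist of interleukin-1, was lower at 1155 and 328 CPM (-1.81), as was Tnfaip3 (-1.08). Il10, which restrains macrophage activation, stood at 384 and 221 CPM (-0.79). Zfp36, which promotes decay of cytokine transcripts, stood at 653 and 1003 CPM (0.62), short of the limit.

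Of 16 interferon response genes 8 were at least 1 lower and 2 higher, with a median of -0.89, or -0.33 when members with any Ly6c2 UMI were left out. Rsad2 stood at 854 and 131 CPM (-2.70), Oasl1 at 1763 and 568 CPM (-1.63), and Isg15 at 875 and 352 CPM (-1.31). Ifit3 (2.43) and Irf7 (51.8 and 193 CPM, 1.88) went the other way. Of 27 early response and stress genes 8 were at least 1 higher and none lower, with a median of 0.57. Hspa1a, a heat shock protein, stood at 276 and 1345 CPM (2.28, and 3.50 in Ly6c2-high cells), and Jun at 89.5 and 502 CPM (2.47). Hspa1b (142 and 972 CPM, 2.77), Egr1 (1.52) and Klf2 (1.62) were further members of that list.

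Monocyte genes were lower in Runx3 members, while MHC class II and complement genes stood near the median of all genes. Of 8 measured monocyte genes 4 were at least 1 lower and none higher, with a median of -0.90. They were F10 (-1.92, -2.50 to -1.44), Clec4e, a receptor for microbial and dead-cell glycolipid (744 and 127 CPM, -2.54), Itga4 (579.7 and 181 CPM, -1.67) and S100a4 (233 and 115 CPM, -1.01). None of 8 MHC class II genes reached the limit (median 0.26), H2-Aa at 5818 and 5943 CPM among them. Of 9 complement genes Cd93 was higher (1.15) and C3 lower (177 and 62.7 CPM, -1.48). Of 11 genes named by the study, Nr4a1 and Hspa1a were past the limit upward and Il1b and Ccl5 downward, while Daxx (0.92), Atf4 (0.60), Jund (0.22) and Runx3 (0.99) were below it. The study chose some of these 11 on its own single-cell data, so they are no independent evidence of direction.

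**Figure D5:**
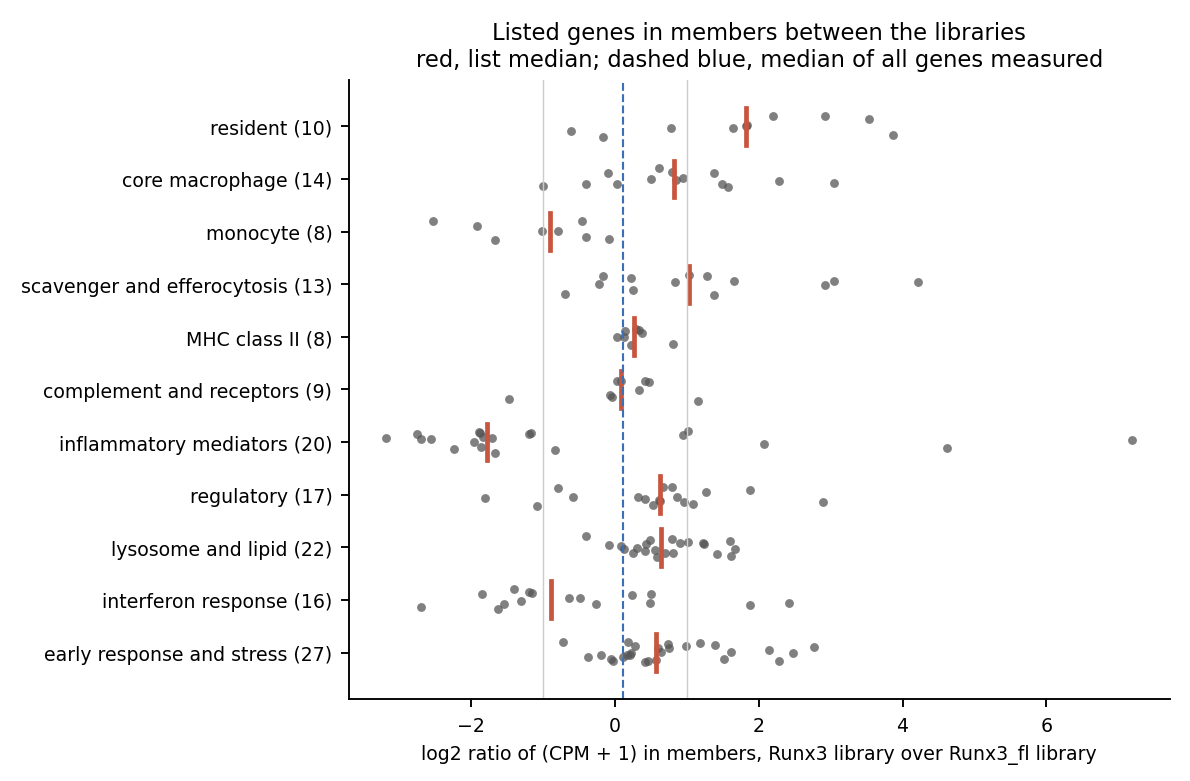
Log2 ratio of the Runx3 library over the Runx3_fl library in members (x axis, of CPM + 1) for each measured gene (points) of each list (y axis), with red bars for list medians and a dashed blue line for the median of all genes. The resident list has the highest median of the lists shown (1.83) and the inflammatory list the lowest (-1.77), around a median of 0.11 over all genes.

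Of all genes, those furthest apart between members of the libraries included further macrophage genes. After Ccl8 came the long non-coding Mir99ahg (5.52), Saa3, Fcrls, an Fc receptor-like gene (3.67 and 107 CPM, 4.53), Pf4, platelet factor 4 (16.2 and 354 CPM, 4.37, with 39.7% of the latter from 1 cell), Gas6 (4.22), Kazn (4.14), Bank1 (3.92), Cd4 (3.87) and Ptgs1, the constitutive cyclooxygenase (8.38 and 132 CPM, 3.82). The inducible cyclooxygenase Ptgs2 went the other way, at 2701 and 734 CPM (-1.88). Lowest in Runx3 members were Xist, Inhba, an activin subunit (126 and 4.42 CPM, -4.55), the arginine transporter gene Slc7a2 (97.9 and 3.53 CPM, -4.45), Procr (186 and 16.8 CPM, -3.39), Lrrc63 (-3.29), Gm16685 (-3.25), Acod1, Fap (-2.99), Il6 and Ccr7, the receptor that guides cells to lymph nodes (245 and 36.2 CPM, -2.72).

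Transcripts of other lineages were present in members of both libraries and differed between them. Of 10 neutrophil genes 7 had a UMI in Runx3_fl members and 10 in Runx3 members, with Ly6g, Camp and Ngp at 0 in the former. Their summed level was 508 and 336 CPM, with a median of 0.286 and 2.51 UMIs per 10000 per cell and a highest cell at 241 and 43.8. All 10 dendritic genes except Cd209a in the Runx3 library had a UMI, at 365 and 156 CPM in sum, from 0 to 30.4 and from 0 to 10.9 UMIs per 10000 per cell. All 12 T and NK genes had a UMI in both libraries, at 285 and 224 CPM, and the highest cell stood at 75.4 and 38.4 UMIs per 10000. Of 10 B and plasma genes 6 and 10 had a UMI, and Ms4a1, Pax5 and Ighd were among those at 0 in Runx3_fl members. They summed to 261 and 481 CPM with a highest cell at 34 and 67.5, and Igkc, an antibody light chain gene of plasma cells, was in 91.3% and 95.6% of members. All 10 stromal and epithelial genes had a UMI in both libraries, at 108 and 251 CPM and up to 19.2 and 21.8 UMIs per 10000. Of the few genes of these lists with 50 or more UMIs over both libraries, 1 of 3 dendritic genes was at least 1 log2 unit higher and 2 lower in Runx3 members, 1 of 3 neutrophil and 2 of 5 T and NK genes were lower, and 2 of 3 B and plasma genes and the only stromal gene that deep were higher. Of 8 mast cell genes 2 and 3 had a UMI (21.5 and 9.72 CPM), with Mcpt1 and Cpa3 at 0 in both, and of 5 erythroid genes 1 and 3 (0.524 and 3.53 CPM). In Ly6c2-high cells the neutrophil genes summed to 252 and 2494 CPM, with a highest cell at 118 and 1763 UMIs per 10000. The B and plasma genes there summed to 254 and 803 CPM (highest cell 115 and 496), and the T and NK genes to 341 and 125 CPM. The part of other cells in the differences above, those against Ly6c2-high cells included, was not tested. Without the cells that had 20 or more UMIs per 10000 of any of these lists, chosen after seeing the data, Mrc1 stood at 95.3 CPM in Runx3_fl members, and without the cells with Xist and no Y-linked transcript it stood at 87.8 CPM.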

How the data were processed

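The deposited files were 1 filtered gene-by-cell matrix of UMI counts per library. Per the file headers the authors made these counts with Cell Ranger 7.1.0. The submitters' processing notes name mm10 and Seurat 4, and whether intronic reads were counted is not given in the sources used here. The authors removed cells under 200 or over 6000 genes or over 15% mitochondrial UMIs and clustered the rest, and no cell annotation of theirs was used here. The same limits were applied, and members were found by UMI gates (Csf1r, C1qa, C1qb and C1qc at 1 or more, Ly6c2 under 1 per 10000 UMIs, Nos2, Cd3e and Cd79a at 0).

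Members, gene lists and comparisons were chosen with earlier results of these data known. A level is the summed UMIs of a class per 1000000 UMIs of that class (CPM) with an exact Poisson interval, a share carries an exact Clopper-Pearson interval, and a ratio is the log2 difference of (CPM + 1) with a conditional binomial interval. All are 95% intervals of counting error, and cells of 1 library are not replicates. Ratios were taken for genes with 50 UMIs or more in the pair, and 1 log2 unit was the limit for counting a gene. Between the libraries, 2 libraries with 1 per title allowed no test. To compare shares across depths each cell was thinned at random to 2000 UMIs (4000 as an alternative), and shallower cells were left out.

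Named genes were those of the rule, the 4 maturation genes, Runx3, genes of 20 lists (271 of 274 symbols found) chosen among them for large ratios or known roles, and the 10 highest and 10 lowest ratios per comparison among genes at 50 CPM and in 10% of cells. In the comparison with Ly6c2-high cells the rank was by the ratio nearer to 0. Results for a few listed genes are not reported here. Identifiers matched GENCODE M21 for 32158 of 32285 genes, from which coordinates and the Ly6c sequences (GRCm38) were taken. Doublets were scored with Scrublet in scanpy 1.11.5 but kept. Scripts ran in Python 3.11.15 with numpy 2.4.6, scipy 1.17.1 and pandas 2.3.3, and were tested on simulated data.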

Additional observations from a re-analysis of the deposited data

Results flagged for a closer look

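S100a8 and S100a9, which encode calprotectin of neutrophils and young monocytes, stood on opposite sides of 0 in the libraries over all members, but not under every alternative. Over Ly6c2-high cells, S100a8 stood at a log2 ratio of 1.71 in Runx3_fl members and -3.24 in Runx3 members, and S100a9 at 1.18 and -2.98. The log2 ratio of S100a8 between the libraries (Runx3 over Runx3_fl) was -1.30 in members and 3.66 in Ly6c2-high cells. With 1 library per title these differences were not tested. Without the highest doublet scores, an alternative chosen after seeing the data, the Runx3_fl ratios turned to -0.28 (S100a8) and -0.70 (S100a9), and S100a8 between the libraries turned to 1.94. The latter turned to 2.26 without cells rich in other-lineage UMIs, also chosen after seeing the data. Without Scrublet's doublets it turned to 0.044, but these were 893 kept cells of the Runx3_fl library and 3 of the Runx3 library. In Runx3_fl members the S100a8 transcript was in 11.8% of cells at 215 CPM, with 35.1% of it from 1 cell, whereas in Runx3 members it was in 53.3% of cells at 86.6 CPM. The neutrophil genes Camp and Ngp were at 0 in the former and at 12.4 and 18.6 CPM in the latter, and their part in the S100a8 difference was not tested.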

How the results depend on the processing

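No paired analysis was possible because each title has 1 library and no replicate number. Of 39 list medians 10 changed sign under at least 1 alternative. Between the libraries these were the cycle list (-0.71 to 0.24, with a minimum of 10 UMIs) and the complement list (0.084 to -0.027, centred on the median gene). The other 8 were medians over Ly6c2-high cells of at most 0.43 in size, such as the inflammatory list in the Runx3_fl library (-0.17 to 0.20) and the core macrophage and cycle lists in the Runx3 library (0.13 to -0.11 and 0.43 to -0.11), all after thinning. Between the libraries the resident median ranged from 1.30 to 1.97, the inflammatory from -1.91 to -1.68, the scavenger from 0.22 to 1.37 and the interferon from -1.09 to -0.33. Gene ratios were recomputed under each alternative, 7845 values in all with each gene counted again every time. Of these 899 moved out of the main interval and 14 reversed, unevenly over the alternatives. Thinning to 2000 UMIs before the gates moved 296 and reversed 7 of 517. Leaving out members with any Ly6c2 UMI moved 191 and reversed 1 of 568, and the mean of the cells' own CPM moved 148 of 584. A minimum of 500 genes moved 0 of 584. The cause was not tested. Leaving out members with any Ly6c2 UMI left 82 Runx3_fl members. Their shares of kept cells became 0.690% and 0.747% (Runx3_fl and Runx3 libraries) and of C1q-positive cells 25.1% and 13.3%, Mrc1 stood at 135 and 335 CPM, Ccr2 at 244.5 CPM in Runx3 members, and Fabp5 between libraries turned to -0.15. The genes lower than in Ly6c2-high cells became 36 (from 20) and those higher between libraries 405 (from 626). With each C1q gene at 2 UMIs or more, members were 0.882% of kept cells of the Runx3 library.

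Thinning to 2000 UMIs before the gates left 57 Runx3_fl members, 0.506% of kept cells, and 62.0% and 38.2% of C1q-positive cells. Ccr2 then stood at 222 CPM and F10 at 190.3 CPM in Runx3_fl members, and F10 at 51.6 and Cx3cr1 at 288 CPM in Runx3 members. The counts against Ly6c2-high cells became 13 higher and 8 lower (from 44 and 20). Between the libraries Cd36 turned to -0.21 and Ccl12 to -0.039, and against Ly6c2-high cells Il6 turned to 1.03, Saa3 to 3.49 and Plcb1 to 0.51 (Runx3_fl library) and Ccr7 to 0.24 and Ccl12 to -0.28 (Runx3 library). A pseudocount of 10 gave 20 and 9 against Ly6c2-high cells and 400 higher between libraries. A minimum of 10 UMIs gave 102 and 68, and 1727 higher and 626 lower (from 373) between libraries. The mean of the cells' own CPM gave Cx3cr1 92.3 CPM in Runx3_fl members and Ccr2 241 CPM in Runx3 members.

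Without Scrublet's doublets S100a8 between libraries turned to 0.044, a value that sets a filtered Runx3_fl library against an almost unfiltered Runx3 library. The alternatives named next were chosen after seeing the data. S100a8 between libraries turned to 1.94 without the highest doublet scores and to 2.26 without cells rich in other-lineage UMIs. Against Ly6c2-high cells of the Runx3_fl library, S100a8 turned to -0.28 and S100a9 to -0.70 without the highest doublet scores, and S100a9 to -0.16 without cells with Xist and no Y-linked transcript. Mrc1 in Runx3_fl members stood at 95.3 CPM without other-lineage cells and at 87.8 CPM without the Xist cells. Depth limits the shares with a UMI, and 127 and 90 members limit every rare transcript.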

Other observations

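Of 3 measured cycle genes 1, Mki67, was past the limit between members of the libraries. Mki67, a nuclear protein of cells in cycle, stood at 241 CPM (219 to 264) in Runx3_fl members and 57.4 CPM (44.3 to 73.2) in those of the Runx3 library, a log2 ratio of -2.05, and was seen at 2000 UMIs in 33.6% and 3.53% of members. Top2a stood at 45.6 and 27.4 CPM (-0.71) and Pcna at 248 and 224 CPM (-0.15), and 9 of the 12 listed cycle genes had under 50 UMIs. Of those 9, Mcm5 (1.06), Mcm6 (1.21) and Cdk1 (1.31) were higher in Runx3 members, Ccnb1 was at -1.03, and the rest lay between -0.21 and 0.62. Runx3_fl members with Mki67 stood against those without at 0.18 (-0.49 to 0.84) for Top2a, -0.39 (-0.69 to -0.10) for Pcna and 2.52 for Ube2c (6 and 1 UMIs). The share with Mki67 is thus not read as a share of cells in cycle. With a minimum of 10 UMIs the list median turned from -0.71 to 0.24. The Ly6c2-high cells gave -2.22 for Mki67.

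Members with an Mrc1 UMI at 2000 UMIs (14 of the Runx3_fl library and 23 of the Runx3 library) were set beside those without (111 and 62). Apoe was higher in members with Mrc1 by 0.80 and 0.75 on the log2 scale, Selenop by 0.64 and 1.19, Fabp5 by 1.89 and 2.24 and Cd93 by 1.52 and 1.13, in the Runx3_fl and Runx3 libraries. Plac8 was lower, at -1.85 and -2.18, and so was Cxcl9, at -1.81 and -1.25. C1qa went opposite ways at -0.41 and 0.74. Of the Fabp5 UMIs of Runx3 members, 58.9% came from 1 cell. The MHC class II gene H2-Aa differed little, at -0.02 and 0.12. The genes named here were picked from the listed genes after their values were seen.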
